A study of Mus musculus with 6 samples.

Results

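The genes described are the interleukin-1 (IL-1) and interleukin-18 (IL-18) receptor family of the mouse, a list of 7 genes: the decoy receptor Il1r2, the signalling receptors Il1r1, Il1rl1 and Il18r1, the accessory chains Il1rap and Il18rap, and the secreted antagonist Il1rn. A gene was represented by the array row that carries its symbol alone, and by the row with the highest mean where there were several. This gave 5 of the 7 genes, out of 19937 genes with such a row. Il1r1 and Il1rl1 were not analysed here, because no row is paired with their symbols in the annotation used. The list was selected on the difference between the same 2 groups of arrays, in which Il1r2 had the lowest value of all 15037 genes tested and the other members did not stand out. The differences of the members are therefore given as a description, without a test.

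The samples were CD4+ TCRβ+ CD25+ cells, a gate that enriches regulatory T cells (Tregs), sorted 5 days after total T cells of wild-type mice had been transferred into T cell-deficient hosts. In the MHC II-competent group (3 arrays) the hosts lacked CD3ε alone, and in the MHC II-deficient group (3 arrays) they lacked CD3ε and MHC class II, on which antigen-presenting cells show peptides to CD4+ T cells. Lack of CD3ε is thus shared by both groups, and the hosts keep their cells other than T cells. The labels give the strain C57BL/6, an age of 6 to 8 weeks and lymph nodes and spleen as the tissue, without saying whether the age is that of donors or hosts or whether an array holds pooled animals. Replicates are named biological and numbered 1 to 3. If they were not separate animals, the p-values measure only the spread between these preparations.

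IL-1 binds IL-1R1, which then recruits the accessory chain IL-1RAcP (Il1rap). The Toll/IL-1 receptor (TIR) domains of the 2 chains bring in MyD88 and IRAK kinases, which act through TRAF6 on NF-κB and MAP kinases. IL-1R2 binds IL-1 but has no TIR domain and so captures the cytokine without a signal, while the antagonist encoded by Il1rn occupies IL-1R1 without recruiting the accessory chain. IL-18 uses a parallel pair, Il18r1 and Il18rap. In Tregs, IL-1R2 is known from activated and follicular cells and the IL-33 receptor ST2 (Il1rl1) from cells of non-lymphoid tissue.

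The sequences before the starts of Il1r2 and of its measured neighbours in the family, Il18r1 and Il18rap, are shown because these genes lie in 1 cluster on chromosome 1 and, as given further on, had unlike differences between the groups. They are from RefSeq on GRCm38.p6, plus strand, 250 bases that end just before the start, with matches to 7 searched motifs in capitals: AP-1 TGANTCA, the NFAT core GGAAA, κB (GGGA and CC with 4 bases between), an interferon response motif (2 copies of GAAA with 2 bases between), the E-box CACGTG, an Egr motif GCGNGGGCG and a GAS motif TTCNNNGAA, each on both strands. Il18r1 has 3 listed starts, of which the first is shown.
Il1r2, chr1:40085843-40086092: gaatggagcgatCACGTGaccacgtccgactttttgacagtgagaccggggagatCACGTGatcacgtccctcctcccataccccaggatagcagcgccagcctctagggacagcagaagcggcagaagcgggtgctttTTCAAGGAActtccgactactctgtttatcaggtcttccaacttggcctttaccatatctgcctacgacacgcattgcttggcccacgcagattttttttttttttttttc
Il18r1, chr1:40465302-40465551: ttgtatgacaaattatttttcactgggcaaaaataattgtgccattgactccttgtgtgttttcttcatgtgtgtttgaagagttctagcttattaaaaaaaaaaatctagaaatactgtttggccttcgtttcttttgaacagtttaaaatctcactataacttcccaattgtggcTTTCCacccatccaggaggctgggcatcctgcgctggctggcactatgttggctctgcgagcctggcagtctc
Il18rap, chr1:40515112-40515361: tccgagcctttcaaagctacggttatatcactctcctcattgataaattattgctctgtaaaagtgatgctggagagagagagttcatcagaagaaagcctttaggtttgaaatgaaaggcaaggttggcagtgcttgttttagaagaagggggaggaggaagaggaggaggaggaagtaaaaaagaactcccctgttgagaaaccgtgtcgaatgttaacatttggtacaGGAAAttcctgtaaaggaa

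The Il1r2 window holds 2 E-box matches, which begin 238 and 195 bases before the start, and 1 GAS match at 111. Of the 32851 windows of the same length in the table, 6.0% hold at least 1 E-box match, 0.43% at least 2, and 7.0% a GAS match. The windows shown for Il18r1 and Il18rap hold 1 NFAT core match each, at 73 and 19 bases, a motif found in 55.6% of windows. Neither holds an E-box match. The windows of the other Il18r1 starts hold 1 NFAT core match each, and that of the third start also 2 GAS matches, at 219 and 152 bases, so a GAS match is not particular to Il1r2 among these genes. The motifs were chosen after the sequences had been seen, windows of 1 gene can overlap, and a match is a run of letters and not a site of binding.

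The sort carried the transcripts of its gate. All 6 Treg and T cell markers measured (Foxp3, Il2ra, Ikzf2, Ctla4, Cd4 and Cd3e) lay above the low-value limit of 5.205, and their mean ranged from 10.84 to 10.96 in the competent and from 10.66 to 10.77 in the deficient arrays. All 6 had a difference below 0, with a median of -0.17. By limma 0 passed the threshold, while 3 had an unadjusted p under 0.05, the checkpoint receptor gene Ctla4 (-0.33), the transcription factor gene Ikzf2 (-0.29) and Il2ra. Foxp3, the lineage factor of Tregs, differed by -0.06 (SE 0.10, adjusted p = 0.798 in limma), and by 0.02 under quantile normalization. Il2ra, which encodes CD25, differed by -0.27 (SE 0.11, adjusted p = 0.223), and by -0.17 without competent 2. Macrophage markers were present and higher in the deficient group. All 12 (among them Adgre1, Csf1r, C1qa and Tyrobp) had a difference above 0, with a median of 1.15. By limma 1 passed the threshold, and 11 were higher at an unadjusted p under 0.05. Their mean was 6.54, 7.04 and 5.85 in competent 1 to 3 and 8.05, 7.63 and 6.97 in deficient 1 to 3. Of 11 neutrophil markers, 6 lay under the low-value limit (S100a8, Ly6g, Cxcr2, Mmp8, Ngp and Retnlg), and the list mean was 4.83 to 4.96 in the competent and 4.89 to 4.99 in the deficient arrays. Of 8 mast cell and basophil markers, 5 lay under it, Cpa3, Fcer1a and Ms4a2 included, and the list mean was 4.80 to 4.90 against 4.92 to 5.02. Of 6 NK cell markers, 3 lay under it, Ncr1 included, with a list mean of 5.88 to 5.94 against 5.98 to 6.10. B cell markers had a mean of 5.74 to 5.95 against 5.86 to 6.02, and Cd8a and Cd8b1 one of 6.62 to 6.76 against 6.91 to 7.08. Of these 2 CD8 T cell genes, 0 passed limma's threshold and 2 were higher at an unadjusted p under 0.05.

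Il1r2 was lower by almost 3 log2 units in cells from MHC II-deficient hosts, while the other measured members differed by less than 0.1. Il1r2 (row 10345752) had log2 values of 9.55, 9.42 and 8.88 in competent 1 to 3. It had 6.37, 6.45 and 6.62 in deficient 1 to 3. The lowest competent array, competent 3, stood well above the highest deficient one, deficient 3. The group means were 9.28 ± 0.36 and 6.48 ± 0.13 (SD, n = 3), which is 6.97-fold lower in the deficient group, with a 95% interval of the fold from 5.38 to 9.04. The log2 difference was -2.80 (SE 0.17). With any 1 array left out it lay between -2.67 and -3.00. With the mean of the macrophage markers as a covariate it was -2.98 (SE 0.25), in a fit with 3 residual degrees of freedom. That mean was itself higher in the deficient group, and its part in the difference of Il1r2 was not tested. In sorted bulk cells, fewer cells that carry a transcript and less of it per cell cannot be told apart.

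**Figure D1:**
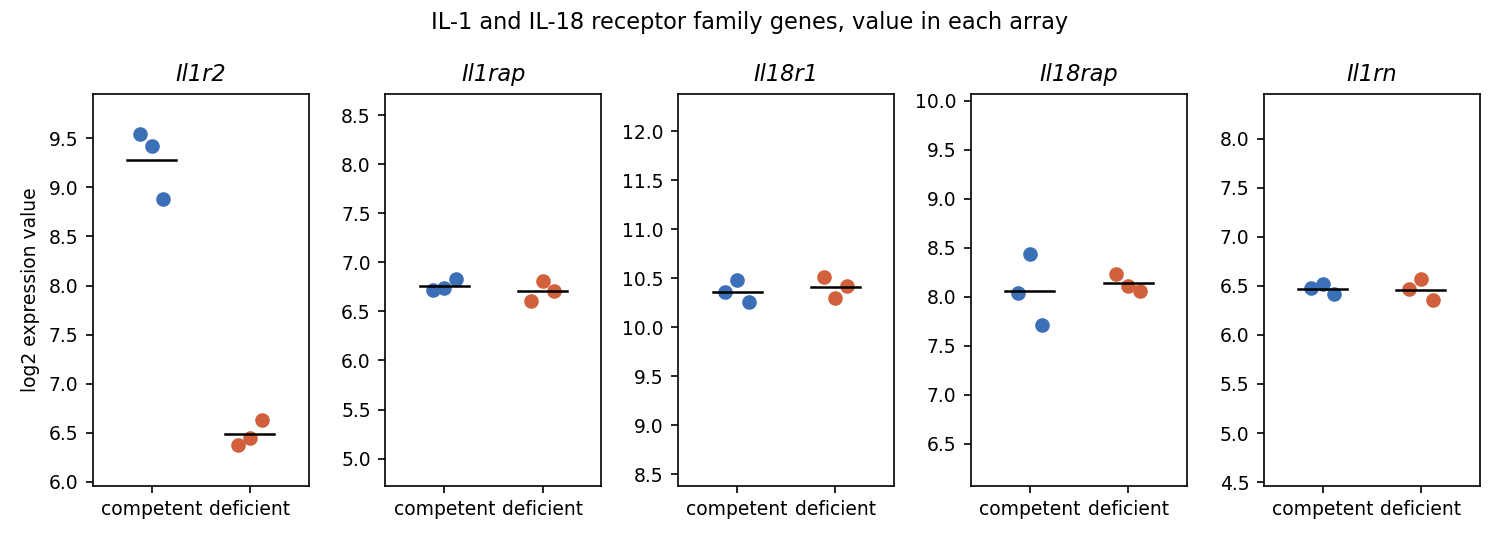
Log2 expression value (vertical axes, each spanning 4 units) of the 5 measured members in each array, with MHC II-competent arrays in blue and MHC II-deficient arrays in orange; points from left to right are replicates 1 to 3 and horizontal lines are group means. Il1r2 separates the groups (means 9.28 and 6.48), and the values of Il1rap, Il18r1, Il18rap and Il1rn overlap.

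The accessory chain of the IL-1 receptor, Il1rap (row 10434845), stood at 6.72, 6.74 and 6.84 in competent 1 to 3 and at 6.61, 6.81 and 6.71 in deficient 1 to 3. The groups overlap, and the log2 difference was -0.06 (SE 0.10, 95% interval -0.27 to 0.16). Il1rap also serves as the second chain of the IL-33 and IL-36 receptors, so its row covers the shared subunit of 3 receptors of the family.

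Both chains of the IL-18 receptor overlapped between the groups. Its ligand-binding chain Il18r1 (row 10345807) had 10.36, 10.48 and 10.25 in the competent and 10.51, 10.30 and 10.41 in the deficient arrays. Each group had an SD of 0.11, and the difference was 0.05 (SE 0.10, 95% interval -0.19 to 0.28). The signalling accessory chain Il18rap (row 10345824) had 8.03, 8.44 and 7.71 in competent 1 to 3 against 8.23, 8.11 and 8.06 in deficient 1 to 3. All 3 deficient values fell inside the competent range, and the SD was 0.36 in the competent and 0.09 in the deficient group. Its difference of 0.08 (SE 0.17, 95% interval -0.30 to 0.45) had a wider interval than those of Il1rap, Il18r1 and Il1rn. It was 0.26 without competent 2, -0.10 without competent 3 and -0.35 (SE 0.18) with the macrophage score as a covariate.

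The antagonist Il1rn (row 10469816) had 6.48, 6.52 and 6.42 in the competent and 6.47, 6.57 and 6.35 in the deficient arrays. The groups overlap and the difference was -0.01 (SE 0.10, 95% interval -0.23 to 0.21). The genes of the 2 proteins that dampen IL-1 without a signal of their own thus had unlike RNA differences, -2.80 for the decoy and -0.01 for the antagonist. The values of Il1rn, and those of Il1r2 in the deficient arrays, lay close to the array medians of 6.11 to 6.25. Those of Il1rap, from 6.61 to 6.84, were little higher. Signal over background is not known here.

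Of the 5 members, 1 was past the threshold (adjusted p under 0.05 over 15037 genes tested) and lower, and 0 were higher, where 3.37% of all tested genes were past it, 2.03% lower and 1.34% higher. The groups did not overlap for 1 of the 5, which was lower, against 24.3% of tested genes, 12.9% lower and 11.4% higher. The members were chosen with this comparison in view, so nothing is read from these counts. All 5 passed the filter on low values, and both group means of Il1r2 lie above it. Ranked among the differences of all 15037 genes from the lowest up, Il1rap, Il1rn, Il18r1 and Il18rap stood at percentiles 35.5, 44.4, 57.0 and 64.4.

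Set against the chains within each array, Il1r2 had nearly the same difference. The log ratio of Il1r2 to the mean of Il1rap, Il18r1 and Il18rap, counted from its mean over the competent arrays, was 0.29, -0.01 and -0.28 in competent 1 to 3. It was -2.97, -2.85 and -2.66 in deficient 1 to 3. The change was -2.82 between the groups, a 7.08-fold shift, and from -2.68 to -2.96 with 1 array left out. Taken singly, the change of Il1r2 was -2.75 relative to Il1rap, -2.85 to Il18r1, -2.88 to Il18rap and -2.79 to Il1rn. A ratio within an array shows unequal change and not that a chain was constant. Il1r1 is not among the chains, so the ratio of the decoy to the signalling receptor that binds IL-1 is not given.

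Il1r2 shares its place in the genome with most of the family. By the order of protein-coding genes in the GRCm38.p6 RefSeq table, Il1r2, Il1r1, Il1rl2, Il1rl1, Il18r1 and Il18rap follow one another on chromosome 1, with Map4k4 before and Slc9a4 after them. Il1rap lies on chromosome 16 and Il1rn on chromosome 2. Of the 10 measured genes that are not members (Il1rl2 and the genes up to 5 places either side of the cluster), 0 were past limma's threshold, and 0 had an unadjusted p under 0.05. Their differences ran from -0.24 (Rnf149, a ubiquitin ligase gene) to 0.32 (Il1rl2, the IL-36 receptor). Map4k4, the kinase gene next to Il1r2, differed by 0.03 (SE 0.09, adjusted p = 0.893 in limma). Such a difference was not seen in the measured genes on either side of Il1r2, but many of them had low values. Creg2, Rfx8, Il1rl2 and the genes after the cluster had competent means from 5.27 (Slc9a2) to 6.59 (Mfsd9), where a fall could hardly show. Rnf149 and Map4k4, both before Il1r2, had 8.24 and 8.85. Il1r1, the gene that follows Il1r2, was not analysed here.

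**Figure D2:**
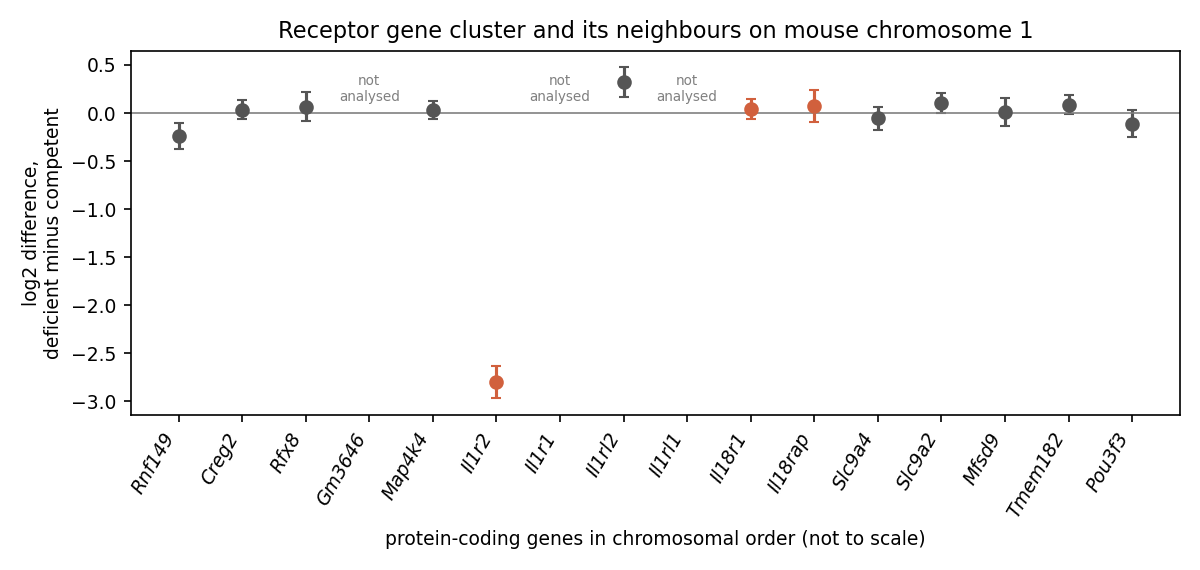
Log2 difference, MHC II-deficient minus MHC II-competent (vertical axis), of the protein-coding genes of the receptor cluster on chromosome 1 and up to 5 genes on each side, in chromosomal order and not to scale; points are limma estimates, bars are 1 SE, members are orange and genes not analysed are marked. Il1r2 lies at -2.80 and the other measured genes lie between -0.24 and 0.32.

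Genes of the pathway that are not members were read from 9 lists, chosen with earlier results of these data known. Of 92 genes listed, 68 were tested, and 3 rose and 8 fell, 16.18% against 3.37% of all genes. Most of the 11 belong to lists of genes known alongside the receptors, not to the pathway itself. The number past the threshold was 3 without competent 1, 4 without competent 2, deficient 1 or deficient 2, 6 without deficient 3, and 3 with the macrophage score as a covariate.

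The ligands of the family were near the low end of the arrays. Of 5 measured, Il1a, Il33 and Il1f10 lay under the low-value limit and have no call. Il1a had 3.56, 3.72 and 3.78 in the competent and 4.43, 4.61 and 3.97 in the deficient arrays. Its difference was 0.65 (SE 0.155), and the groups did not overlap. Il33 differed by 0.08 (SE 0.11) and Il1f10 by 0.10 (SE 0.10). Il1b had 5.78, 5.67 and 5.75 in the competent and 5.91, 6.20 and 5.86 in the deficient arrays, a difference of 0.26 (SE 0.11, adjusted p = 0.256 in limma). Il18 had 5.56, 5.26 and 5.20 against 6.75, 5.55 and 5.60, and its difference of 0.62 (SE 0.28, adjusted p = 0.269 in limma) was 0.23 without deficient 1, the one high array, and 0.10 with the macrophage score as a covariate. By limma 0 of the 2 tested ligands passed, and 1 had an unadjusted p under 0.05.

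Among the other receptors and soluble binders, the IL-18 binding protein rose. Il18bp (row 10566050), which encodes a secreted decoy for IL-18, had 7.33, 7.62 and 7.61 in the competent arrays and 8.18, 8.04 and 8.34 in the deficient arrays. The groups did not overlap, and the difference was 0.67 (SE 0.12, adjusted p = 0.021 in limma). The call rested on 4 arrays, competent 1 and 2 and deficient 1 and 3, without any of which it ended (adjusted p up to 0.0824). With the macrophage score as a covariate the difference was 0.77 and the adjusted p = 0.126, beside a macrophage median of 1.15. Il1rl2 (0.32, SE 0.16, adjusted p = 0.313), which was 0.20 without deficient 2 and -0.05 with that covariate, did not pass. Sigirr, an inhibitory receptor of the family, did not pass either (0.03, SE 0.17, adjusted p = 0.955), and its sign turned under median centring (-0.03) and array weights (-0.09) and without several of the arrays.

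The shared signalling path below the TIR domain had 0 of 19 tested genes past limma's threshold, with 2 lower at an unadjusted p under 0.05. The median difference of the 19 was 0.01, against 0.02 over all tested genes, and the range was -0.30 to 0.22. The lowest was Myd88, the adaptor of IL-1, IL-18 and IL-33 receptors, at 9.32, 9.04 and 9.15 in the competent and 8.80, 8.88 and 8.92 in the deficient arrays (-0.30, SE 0.10, adjusted p = 0.159). The kinase gene Irak2 differed by 0.01 (SE 0.13, adjusted p = 0.984), and its sign turned under quantile normalization (-0.02), median centring (-0.05) and without competent 1, competent 2 or deficient 1. The genes Traf6, Map3k7 and Ube2n (named after their values were seen), which carry the signal from IRAK to the kinases above NF-κB, had differences of 0.16, -0.06 and -0.02.

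Of 12 genes that restrain or shape the response, 1 rose, and at an unadjusted p under 0.05 the count was 4 higher and 0 lower (Nfkbiz, Irak3, Tnfaip3 at 0.35 and Peli1 at 0.25). Nfkbiz (row 10439936), a nuclear IκB protein that IL-1 receptor and Toll-like receptor signals induce, had 8.95, 9.11 and 9.16 in the competent and 9.85, 9.67 and 9.52 in the deficient arrays. The difference was 0.60 (SE 0.11, adjusted p = 0.0246 in limma). Leaving out competent 1, competent 2, deficient 1 or deficient 2 ended the call (adjusted p up to 0.104), and the difference was 0.49 with the macrophage score as a covariate (adjusted p = 0.254). Irak3, a kinase-like inhibitor known from macrophages, stood at 0.45 (SE 0.16, adjusted p = 0.16), at 0.32 without deficient 1 and at 0.05 with that covariate. The list had a median of 0.04. Of 5 tested inflammasome genes, whose products activate IL-1β and IL-18, 0 passed limma's threshold and 1 was lower at an unadjusted p under 0.05, with a range of -0.45 (Pycard, the adaptor ASC) to 0.18 (Gsdmd).

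**Figure D3:**
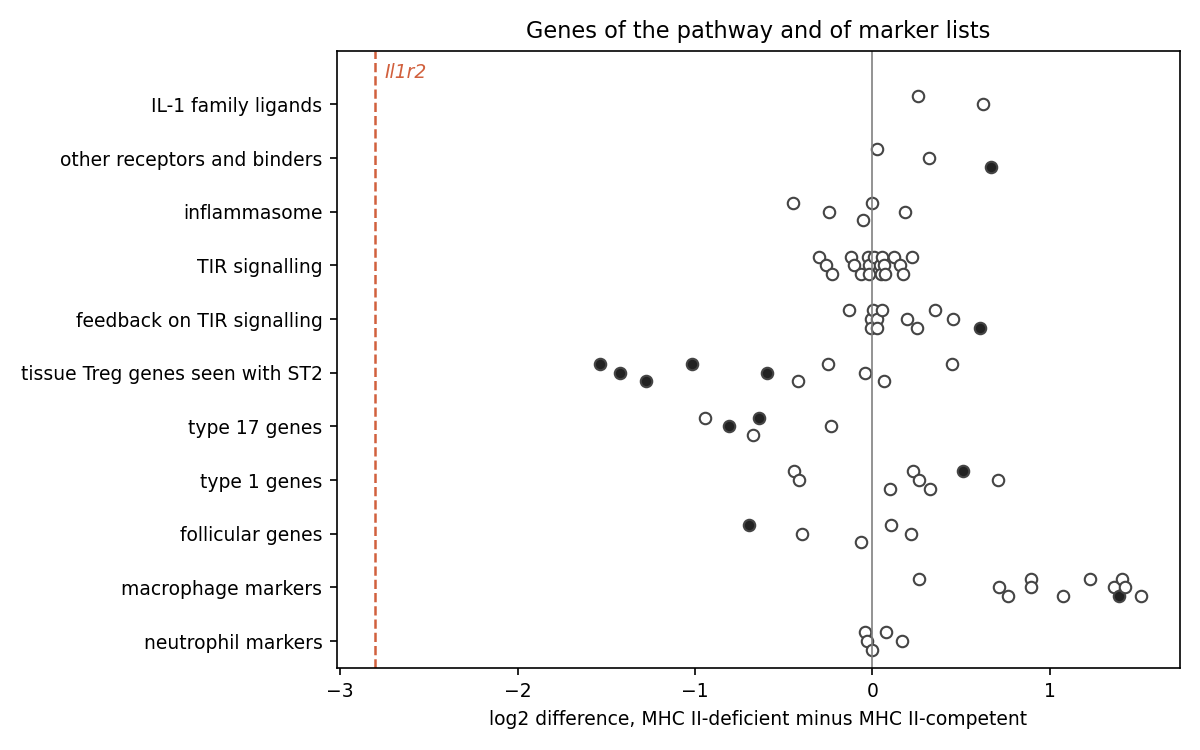
Log2 difference, MHC II-deficient minus MHC II-competent (horizontal axis), of each tested gene of the pathway lists and of 2 marker lists (rows); filled points passed limma's threshold, open points did not, vertical spread within a row carries no value, and the dashed line marks Il1r2. The 19 TIR signalling genes lie between -0.30 and 0.22, and Il1r2 lies below every gene shown.

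Genes that mark the cells in which these receptors are known were then read. Of 10 tested tissue Treg genes known with ST2, 5 fell and 0 rose, with a median of -0.51. Nfil3, a basic leucine zipper transcription factor, had 8.19, 7.97 and 8.12 in the competent and 7.12, 7.08 and 7.03 in the deficient arrays (-1.02, SE 0.10, adjusted p = 0.00163 in limma). Its call held whichever array was left out (adjusted p up to 0.00955) and with the macrophage covariate (0.0418), as did the cytokine gene Il10 (-1.42, up to 0.012 without an array, 0.0219 with the covariate). The chemokine receptor gene Ccr8 (-1.53) and the nuclear receptor gene Rora (-0.60) fell too. Ccr8 missed the threshold without competent 1 or 2 (adjusted p up to 0.0857), and its difference was -2.33 with the covariate (adjusted p = 0.00299). Rora missed it without deficient 1 or 2 (up to 0.0589) and with the covariate (difference -0.54, adjusted p = 0.166). Klrg1, an inhibitory lectin receptor named after its values were seen, was the fifth (-1.27, SE 0.26, adjusted p = 0.0341). Its call held without competent 3 and ended without each of the other 5 arrays (highest 0.135). The call also ended with the covariate (difference -1.65, adjusted p = 0.105). It ended narrowly under quantile normalization (0.0503), median centring (0.0504) and a trended robust prior (0.0558). The count of this list was 3 without competent 1, competent 2, deficient 1 or deficient 2, and 3 with the covariate. Gata3 (-0.25, adjusted p = 0.195) and Batf (-0.42, adjusted p = 0.181), transcription factors of ST2+ Tregs, missed the threshold, as did Cxcr6, a chemokine receptor gene with the opposite sign (0.45, groups not overlapping, adjusted p = 0.1), Dgat2 (0.06) and Pparg (-0.04). These 5 were picked once their values were known. At an unadjusted p under 0.05, 7 genes of the list were lower and 1 was higher.

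Of 5 tested Th17 genes, known with IL-1R1, 2 fell and 0 rose, with a median of -0.67. Il17f had 6.91, 6.54 and 6.87 in the competent and 6.14, 6.09 and 6.17 in the deficient arrays (-0.64, SE 0.12, adjusted p = 0.0215 in limma). Il17a had 6.88, 6.29 and 6.44 against 5.93, 5.55 and 5.71 (-0.81, SE 0.16, adjusted p = 0.0301 in limma). Both encode cytokines of Th17 helper cells, and their groups did not overlap. The call of Il17f held without competent 2 or 3 and that of Il17a without competent 3. Both ended without each other array (highest adjusted p 0.0851 and 0.109). With the macrophage covariate both calls ended too, at differences of -0.47 and -0.84 (adjusted p 0.261 and 0.193). The list count was 0 without competent 1 or any single deficient array, 1 without competent 2 and 3 without competent 3.

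Of 8 tested Th1 genes, known with the IL-18 receptor, 1 rose. Tbx21, which encodes the Th1 factor T-bet, had 6.99, 6.99 and 6.96 in the competent and 7.50, 7.45 and 7.52 in the deficient arrays (0.51, SE 0.09, adjusted p = 0.0173 in limma). The difference stayed between 0.50 and 0.53 with 1 array left out, but the call held without competent 3 alone (highest adjusted p 0.0798). With the macrophage covariate the difference was 0.51, its SE rose to 0.14 and the call ended (adjusted p = 0.166). The list median was 0.24, with 4 genes higher and 2 lower at an unadjusted p under 0.05. The 2 lower genes were Cxcr3, a chemokine receptor gene of Th1 cells (-0.44, adjusted p = 0.0588 in limma), and Ifng, which encodes interferon-γ (-0.41, adjusted p = 0.248), both named after their values were seen. Without competent 3 the list had 1 gene past the threshold in each direction. Of 5 tested follicular genes, known with IL-1R2, 1 fell, the costimulatory receptor gene Icos (-0.70, SE 0.13, adjusted p = 0.021 in limma). Icos missed the threshold without competent 1, competent 2 or deficient 2 (adjusted p up to 0.0885). With the covariate its difference was -0.79, and it missed the threshold too (adjusted p = 0.129). Bcl6 (0.22, adjusted p = 0.433), the defining factor of follicular T cells, and their chemokine receptor gene Cxcr5 (0.11, adjusted p = 0.854) missed it. So did Sh2d1a (-0.39, groups not overlapping, adjusted p = 0.103) and Pdcd1 (-0.06, adjusted p = 0.775). These genes too were picked once their values were known. The list median was -0.06, with 2 genes lower and 0 higher at an unadjusted p under 0.05. Under the low-value limit, Il21 differed by -1.11 and Ascl2 by -0.01. Without the filter on low values, 2 genes of the list passed and were lower. Beside all these lists the macrophage markers had a median of 1.15. Their part in the calls that ended with the covariate was not tested beyond that fit, in which 3 residual degrees of freedom remain.

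**Figure D4:**
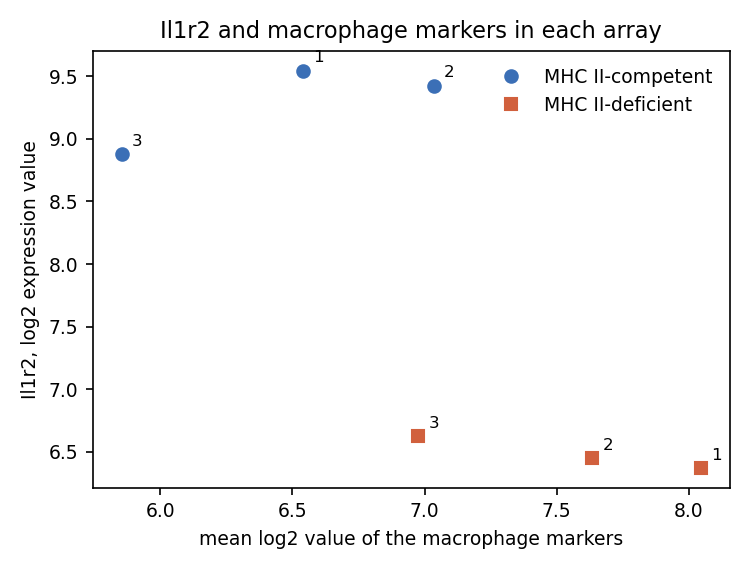
Log2 value of Il1r2 (vertical axis) against the mean log2 value of the 12 macrophage markers (horizontal axis) in each array, with the replicate number beside each point; blue circles are MHC II-competent and orange squares MHC II-deficient arrays. Competent 2 and deficient 3, singled out once their values were known, have macrophage means of 7.04 and 6.97 and Il1r2 values of 9.42 and 6.62.

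The macrophage mean was higher and Il1r2 lower in the deficient group, and within that group too the arrays ran in opposite order, with macrophage means of 8.05, 7.63 and 6.97 beside Il1r2 values of 6.37, 6.45 and 6.62 in deficient 1 to 3. Competent 2 and deficient 3, singled out once their values were known, had almost the same macrophage mean and Il1r2 values of 9.42 and 6.62. Within the competent group, the array with the lowest macrophage mean, competent 3, also had the lowest Il1r2 value. The part of the macrophage signal in the difference of Il1r2 was not tested.

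The genes whose values followed Il1r2 most closely over the 6 arrays, by Pearson's r among the 15037 tested, were Mphosph6 (a cofactor of the nuclear exosome, r = 0.995), Mcm3 (a subunit of the replicative helicase, 0.995), Tmpo (a protein of the nuclear lamina, 0.994), Timp2 (an inhibitor of metalloproteinases, 0.993) and Zdhhc2 (a palmitoyltransferase, 0.993). Such an r over 2 groups of 3 arrays is mostly the gap between the groups. Within the groups, after each group's mean was taken off, r was 0.84, 0.85, 0.84, 0.71 and 0.74. The genes were picked for a high r over the same 6 arrays, which favours a high r within the groups too, so nothing is read from these values. Their differences were smaller than that of Il1r2. That of Timp2 was -1.25, from 8.80, 8.87 and 8.74 in the competent to 7.53, 7.56 and 7.56 in the deficient arrays. Those of Zdhhc2, Mcm3, Mphosph6 and Tmpo were -0.83, -0.56, -0.41 and -0.40. Mphosph6 has 2 rows, and with the mean of its rows the difference was -0.28. They were picked for likeness, so their direction is set by the choice and no test is given.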

How the data were processed

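The deposited table holds 1 log2 value per array for 28101 rows. These values were made by the authors with RMA from affy, an R package, per the submitters' processing notes; RMA subtracts background, equalises the arrays' distributions and summarises the probes of a row. Versions and build are not given in the sources used here. The base of the logarithm is unstated, and 2 was assumed, as RMA writes it. Medians of the deposited values still ran from 6.11 to 6.25 between the arrays, so their distributions were not fully equal. Each array was made from 100 ng of RNA. The number of arrays limits the precision.

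Rows were named through the platform annotation, and symbols brought up to date through RefSeq's Entrez numbers (21640 rows with 1 symbol, 1321 with several, 5140 with none named here). Of 19937 genes, 15037 had a mean above 5.205, the 25th percentile of the gene rows, and were tested. Limma 3.58.1 in R 4.3.3 (lmFit, eBayes, two-sided, no covariate) compared MHC II-deficient minus MHC II-competent, with Benjamini-Hochberg adjustment over all 15037 genes and a threshold of 0.05; it was tested on simulated data. Errors are limma's SE and 95% intervals, or SD over 3 arrays. Alternatives were other filters, quantile normalization, median centring, a trended robust prior, array weights, the replicate number as a block, the mean of all rows of a gene, the macrophage marker mean as a covariate and each array left out.

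Members and lists were chosen with earlier results of these data known. Named genes were the members, up to 4 called genes of each list by smallest p, 9 pathway genes and Foxp3 and Il2ra whatever their values, called chromosomal neighbours and the 5 genes most like Il1r2. Listed genes without a row of their own were not analysed here, and some other genes of the lists are given by count alone.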

Additional observations from a re-analysis of the deposited data

How the results depend on the processing

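Il1r2 kept its direction under the 12 alternatives run for it, from -3.00 to -2.67, both ends being fits with 1 array left out, and the log ratio to the 3 chains ran from -2.96 to -2.68. The other 4 members have differences whose signs turned in at least 1 setting. With the macrophage score as a covariate Il1rap stood at 0.030, Il18r1 at -0.096, Il18rap at -0.35 and Il1rn at -0.12, and 63 genes of all tested and 3 of the lists passed. With 3 residual degrees of freedom in that fit, the cause of the lower counts was not tested. With 1 array left out, 159 (without deficient 1) to 708 (without competent 3) genes passed, and 3 (without competent 1) to 14 (without competent 3) of the lists. The count fell by more than 1.5 times without each array other than competent 3 (249, 173, 159, 213 and 320 without competent 1 and 2 and deficient 1 to 3). Of the 507 calls, 201 were higher and 306 lower. Quantile normalization gave 230 and 230, and median centring 127 and 297. Signs turned for Foxp3 under quantile normalization (0.017), for Il1rl2 with the macrophage covariate (-0.049), for Irak2 under quantile normalization (-0.020), median centring (-0.048) and leaving out 1 array (-0.083 to 0.098), and for Sigirr under median centring (-0.029), array weights (-0.090) and leaving out 1 array (-0.076 to 0.19). No chromosomal neighbour passed under any alternative run, which was added after seeing the data.

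With the replicate number as a block, 564 genes and 13 list genes passed, and the difference of Il1r2 was unchanged at -2.80. The labels do not say that the numbers pair the arrays, and the correlations of same-numbered arrays' deviations were -0.025, -0.141 and 0.069, so the block was not used. Il1a, Il33 and other rows under the low-value limit have no call. Without scanner data or detection calls in these files, signal over background is not known here.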
